A study of Homo sapiens with 4 samples.

Results

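A set of 40 neuronal genes was followed in Daoy cells, an established human cell line from a medulloblastoma of the sonic hedgehog type, by RNA-seq of total RNA. The genes, 40 of the 58174 in the files, were chosen by name for their roles in neurons, with earlier results of these data known. They comprise neuronal cytoskeleton, RNA-binding, adhesion, synaptic vesicle, glutamate receptor and secretory granule genes, with a last group for the axon, endosomes and calcium binding. There were 2 EED-knockout and 2 wild type libraries, and the groups share the Daoy background and carry no other labelled treatment. EED is the subunit of Polycomb repressive complex 2 that binds trimethylated histone H3 lysine 27 and is needed for the complex to write that mark. The labels do not say where the EED lesion lies, nor do they name the cultures or clones behind each library. P-values therefore cover the spread among these 4 libraries alone, and that spread may be technical.

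Neurons build a stable axonal cytoskeleton from microtubule proteins and neurofilaments, process RNA with their own binding proteins, and release transmitter from vesicles through the SNARE machinery. In many non-neuronal cells and progenitors such genes are held low, some by the repressor REST and its cofactors and some by Polycomb complexes. Cerebellar granule cell progenitors, from which hedgehog medulloblastomas are thought to arise, normally switch many of them on as they mature.

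Library totals were 19022736 and 18164045 estimated counts in EED-knockout cells, against 19106382 and 17836112 in wild type cells. At this depth 3 counts, the limit that a count of 0 allows, stood for 0.157 to 0.168 CPM, the count scaled to library size, here the library total. The CPM of genes also use TMM factors that adjust library size, from 0.953 in wild type library 1 to 1.03 in EED-knockout library 2. Those CPM therefore differ slightly in scale from this limit. EED itself had 17.9 and 26.2 CPM in the EED-knockout libraries, against 34.5 and 27.6 CPM in the wild type libraries. Both knockout libraries were below both wild type libraries, but EED RNA remained, and the log2 fold change of -0.49 ± 0.27 (SE, n = 2 each; 95% interval -1.12 to 0.13) missed the threshold in edgeR's quasi-likelihood test (adjusted p = 0.878). RNA level alone does not show whether EED protein was lost, and a lesion that leaves the transcript in place is not checked by it. Across genes, log2 CPM correlated at 0.953 between the EED-knockout libraries and at 0.975 between the wild type libraries, and at 0.947 to 0.971 between genotypes, so the knockout libraries were less alike than most pairs taken across genotypes.

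Few of the 40 genes were abundant. TPM, the transcript abundance scaled by length, which allows genes to be set side by side, exceeded 10 in every library for 7 genes: UCHL1, TUBB3, NCAM1, L1CAM, NMNAT2, NEFL and CALB2. A level above 1 TPM in every library was reached by 15 genes, and 16 stayed under 1 TPM in every library. The summed level of the 40 genes was 1442 and 785 TPM in EED-knockout cells, against 849 and 1049 TPM in wild type cells, and UCHL1 alone gave 78.2% and 66.0% of it in EED-knockout cells, against 69.2% and 73.6% in wild type cells. Without UCHL1 the sum of the other 39 was 314 and 267 TPM in EED-knockout cells, against 261 and 277 TPM in wild type cells. In bulk RNA, fewer cells expressing a gene and less of its RNA per cell cannot be told apart.

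Counts sufficed to test 28 of the 40 genes, of which 15 were higher and 13 lower in EED-knockout cells. Their median log2 fold change was 0.10, against 0.0074 over all 18349 genes tested, and 53.6% of them were higher in knockout cells, against 50.9% of all genes tested. The median was -0.060 without EED-knockout library 1 and 0.35 without wild type library 2. After adjustment over all genes edgeR called 0 of the 28 higher and 0 lower, with a background of 0% in either direction. At an unadjusted p under 0.05 the same test had MAP2 and NSG1 as higher, 7.14% of the genes tested here against 2.85% of all genes. It had NMNAT2 as lower, 3.57% against 3.05%. DESeq2, run as an alternative, called NSG1 higher, where it called 0.142% of all genes, and NMNAT2 lower, where it called 0.229%. In CPM, the knockout values were both higher than either wild type value for 6 genes (MAP2, MAPT, NEFH, RBFOX3, CHGB and NSG1), 21.4% against 17.8% of all genes tested, and both lower for 3 (NEFM, SYT1 and NMNAT2), 10.7% against 18%. In TPM the corresponding counts were 7 (25.0%, against 23.4% of all genes) and 2 (7.14%, against 12.9%). The shares of genes with both knockout values higher were near the background on either scale, and the shares with both lower were under it, from 3 and 2 genes.

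**Figure D1:**
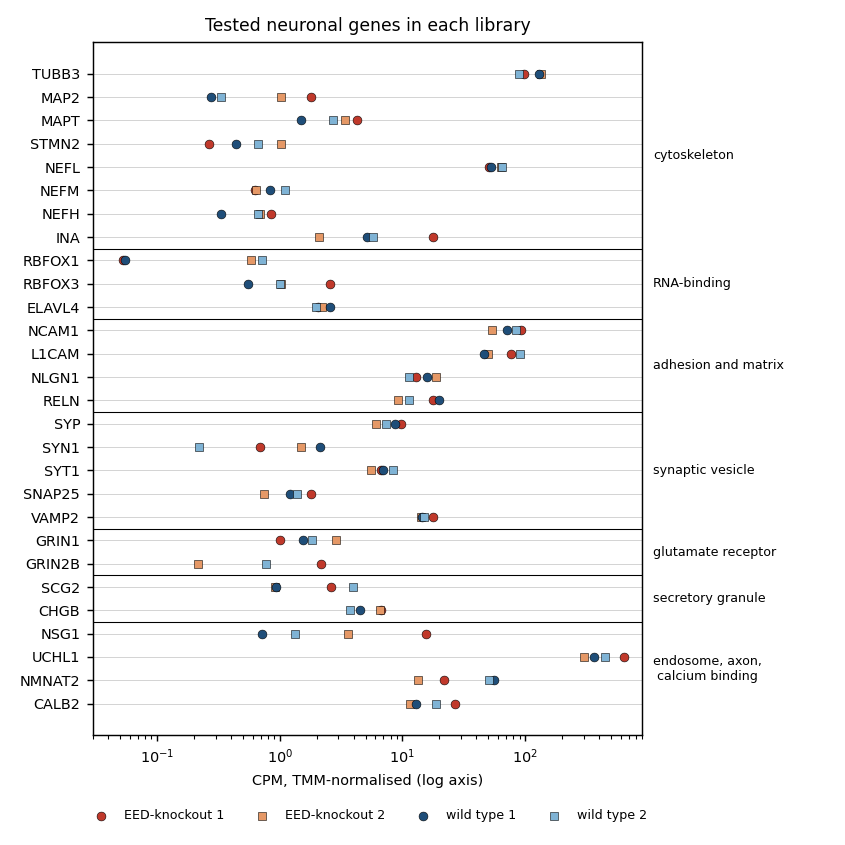
CPM on a log axis of the 28 neuronal genes tested, grouped by role, with 1 point for each library (2 EED-knockout, 2 wild type). The NMNAT2 points of the EED-knockout libraries lie at 13.3 and 21.7 CPM, left of those of the wild type libraries at 50.4 and 56.2 CPM, and GRIN2B in wild type library 1, at 0, is not drawn.

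NMNAT2 had the lowest unadjusted p of the 28. It encodes an enzyme that makes NAD in the cytoplasm and is a labile survival factor of axons. Its gene lies on chromosome 1 (chr1:183248237-183418602, minus strand, GRCh38). NMNAT2 had 21.7 and 13.3 CPM in the EED-knockout libraries, against 56.2 and 50.4 CPM in the wild type libraries, a mean of 17.5 ± 5.93 against 53.3 ± 4.12 CPM (SD, n = 2 each). The groups did not overlap, and per length they did not either, with 15.2 and 11.1 TPM in EED-knockout cells against 30.7 and 30.6 TPM in wild type cells. The log2 fold change was -1.61 ± 0.28 (SE; 95% interval -2.26 to -0.95), which corresponds to a 3.04-fold lower level in knockout cells. edgeR's quasi-likelihood test gave an unadjusted p of 0.000682 and an adjusted p of 0.491, and DESeq2 gave an adjusted p of 0.00048. The call depended on the tool. Over the alternatives run the log2 fold change ranged from -1.99 to -1.18, and it was -1.99 without EED-knockout library 1. That fit keeps 1 knockout library and so holds no spread between knockout libraries, and only its effect size is given. The 56 tested genes within 5 Mb of it had a median log2 fold change of -0.24, and the 1821 tested on chromosome 1 had -0.038. A median over many genes does not show how far single neighbours differed, and a difference of the region was not tested.

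NSG1 had the highest fold change of the 28. It encodes a neuronal endosomal protein that takes part in the recycling of receptors, AMPA receptors among them. The gene lies on chromosome 4 (chr4:4348140-4419058, plus strand, GRCh38). NSG1 had 15.5 and 3.58 CPM in the EED-knockout libraries, against 0.716 and 1.33 CPM in the wild type libraries, or 295 and 67 counts against 13 and 24. Both knockout libraries were above both wild type libraries, and knockout library 1 was far above knockout library 2. The log2 fold change was 3.22 ± 0.75 (SE, n = 2 each; 95% interval 1.44 to 5.0), or 9.31-fold. edgeR gave an unadjusted p of 0.00369 and an adjusted p of 0.769, while DESeq2 gave an adjusted p of 0.00641. Without EED-knockout library 2 the log2 fold change was 3.92, and without EED-knockout library 1 it was 1.81, each from 1 knockout library. Over the alternatives run the log2 fold change ranged from 0.93 to 3.92.

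The difference in NSG1 was much smaller per length. Its TPM overlapped between genotypes, at 19.4 and 8.23 in EED-knockout cells against 10.2 and 2.96 in wild type cells, and on the log2(TPM + 1) scale the log2 fold change was 1.04. A short transcript of 190 bases, NSG1-006, held 1.81 and 4.28 TPM in EED-knockout cells, against 9.88 and 1.79 TPM in wild type cells, from 5.13 estimated counts or fewer in any library. With that transcript left out, NSG1 had 17.5 and 3.95 TPM in EED-knockout cells, against 0.366 and 1.16 TPM in wild type cells, and the groups no longer overlapped. STX18, a gene on the opposite strand that overlaps NSG1, had 59.1 and 34.5 CPM in EED-knockout cells, against 35.8 and 35.2 CPM in wild type cells, and its highest library was the one in which NSG1 was highest. The sources used here do not give whether the library kit marked strand, so reads of the overlap cannot be told apart between the genes. The 93 tested genes within 5 Mb of NSG1 had a median log2 fold change of 0.37, and the 611 tested on chromosome 4 had 0.13.

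The promoter windows of these genes are shown because Polycomb complexes in mammals are found mostly at promoters rich in CG pairs. Each gene also has a pair of RefSeq starts that can be set beside its transcripts, some of which begin elsewhere. Each window, from RefSeq on GRCh38.p14, runs from 250 bases before to 50 bases after a start, reads 5′ to 3′ on the gene's strand and has its CG pairs in capitals. The motif searched was CG, which reads the same on both strands. At least 1 CG was found in 96.0% of the 35116 RefSeq windows of this length, with a median of 14, and 26 of the 40 genes had windows. Over the 70 windows of these genes the median was 11. The highest number, 52, was in RELN, whose genotypes overlapped in CPM and TPM. Whether CG pairs or Polycomb complexes have a part in the differences was not tested.
NMNAT2 inner start, chr1:183304825-183305124, minus strand: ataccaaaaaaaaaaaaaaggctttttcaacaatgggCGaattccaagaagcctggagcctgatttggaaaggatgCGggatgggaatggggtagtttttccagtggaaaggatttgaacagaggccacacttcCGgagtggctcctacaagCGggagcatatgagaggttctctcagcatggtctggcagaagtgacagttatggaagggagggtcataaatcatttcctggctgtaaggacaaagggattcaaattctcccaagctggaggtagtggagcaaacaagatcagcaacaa
NMNAT2 outer start, chr1:183418331-183418630, minus strand: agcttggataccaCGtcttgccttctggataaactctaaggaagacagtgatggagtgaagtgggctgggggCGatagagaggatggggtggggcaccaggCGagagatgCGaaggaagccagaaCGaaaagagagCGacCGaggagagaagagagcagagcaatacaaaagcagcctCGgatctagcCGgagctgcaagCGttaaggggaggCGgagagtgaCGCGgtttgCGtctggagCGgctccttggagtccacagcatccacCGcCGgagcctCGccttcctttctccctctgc
NSG1 first start, chr4:4386282-4386581, plus strand: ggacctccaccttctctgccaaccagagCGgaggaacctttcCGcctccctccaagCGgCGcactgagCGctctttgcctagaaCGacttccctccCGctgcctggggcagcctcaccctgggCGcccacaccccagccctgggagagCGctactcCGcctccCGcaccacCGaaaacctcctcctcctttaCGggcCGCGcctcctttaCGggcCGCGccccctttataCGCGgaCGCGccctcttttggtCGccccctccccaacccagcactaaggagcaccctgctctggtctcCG
NSG1 second start, chr4:4386852-4387151, plus strand: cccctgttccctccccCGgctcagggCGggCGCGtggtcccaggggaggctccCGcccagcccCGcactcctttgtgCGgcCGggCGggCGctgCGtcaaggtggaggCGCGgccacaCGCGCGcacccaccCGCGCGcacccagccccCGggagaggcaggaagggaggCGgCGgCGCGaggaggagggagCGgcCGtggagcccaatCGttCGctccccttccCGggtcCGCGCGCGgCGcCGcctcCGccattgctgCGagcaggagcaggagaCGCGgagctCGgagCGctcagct

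The NMNAT2 windows differed widely. The inner one held 4 CG pairs, a number that 75.5% of windows reach, and the outer one held 18, a number that 44.5% reach. These starts lie 113506 bases apart. The transcript that begins at the inner start, NMNAT2-002, carried most of the gene's counts in every library: 340 and 193 estimated counts, 82.6% and 77.4% of the gene, in EED-knockout cells, against 874 and 595, 85.6% and 65.3%, in wild type cells. The transcript nearest to the outer start, NMNAT2-001, begins 222 bases from it and had 22.1 and 16.4 estimated counts in EED-knockout cells, against 46.0 and 221 in wild type cells. Both transcripts were thus lower in both knockout libraries. The share of NMNAT2-001 in the gene was 5.4% and 6.6% in EED-knockout cells, against 4.5% and 24.3% in wild type cells, and overlapped.

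The NSG1 windows were both above the median of CG pairs, with 24 in the first (reached by 33.9% of windows) and 41 in the second (reached by 6.69%). Their starts lie 570 bases apart. NSG1-003, which begins 6 bases from the first start, had 133 and 21.2 estimated counts in EED-knockout cells, against 3.03 and 15.4 in wild type cells. It was higher in both knockout libraries, though knockout library 2 and wild type library 2 were close. NSG1-201 and NSG1-005 share a start 63 bases from the second one. NSG1-201 had 0 and 16.9 estimated counts in EED-knockout cells, against 0 and 5.65 in wild type cells. NSG1-005 had 77.8 and 0.79 estimated counts in EED-knockout cells, against 0 and 0.32 in wild type cells, so that much of what set knockout library 1 apart lay in this transcript and in NSG1-003. NSG1-009 and NSG1-001 had 49.0 and 14.6, and 20.5 and 8.21, estimated counts in EED-knockout cells, against 0 and 1.66, and 0 and 0, in wild type cells. NSG1-009 and NSG1-001 begin before the first start, at chr4:4385445 and chr4:4348140, and neither window covers their starts. Kallisto divides fragments between overlapping transcripts by a model, so single transcripts are less certain than the gene.

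**Figure D2:**
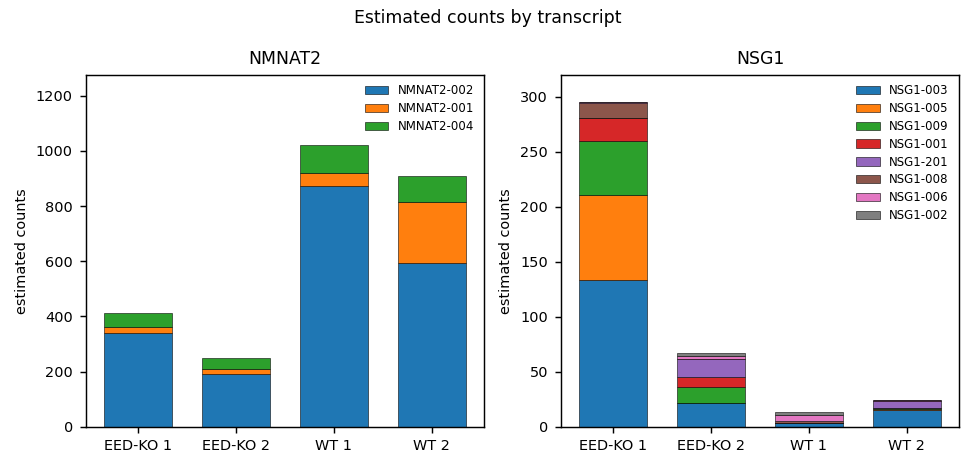
Estimated counts of the transcripts of NMNAT2 and NSG1, stacked in 1 bar for each library, with the EED-knockout libraries on the left. NMNAT2-002 makes up most of every NMNAT2 bar, at 193 to 874 counts, and the NSG1 bar of EED-knockout library 1 stands above the other 3.

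Among the cytoskeletal genes, 6 of 8 tested were higher in EED-knockout cells (median log2 fold change 0.42), and those whose groups were apart in CPM were all low. MAP2, which stabilises microtubules in dendrites, had 1.79 and 1.02 CPM in EED-knockout cells, against 0.275 and 0.332 CPM in wild type cells, from 34 and 19 counts against 5 and 6. The groups did not overlap, and the log2 fold change was 2.18 ± 0.65 (SE; 95% interval 0.65 to 3.72), or 4.55-fold. The unadjusted p was 0.012 and the adjusted p 0.799 in edgeR, and the adjusted p was 0.779 in DESeq2. Over the alternatives run the log2 fold change ranged from 0.52 to 2.53. Per length MAP2 remained under 1 TPM everywhere, at 0.997 and 0.628 TPM in EED-knockout cells against 0.279 and 0.242 TPM in wild type cells.
MAPT, which encodes the axonal microtubule protein tau, had 4.27 and 3.42 CPM in EED-knockout cells, against 1.49 and 2.71 CPM in wild type cells, without overlap. Its log2 fold change was 0.87 ± 0.46 (edgeR adjusted p = 0.873).

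TUBB3, the tubulin most used to mark neurons, was second to UCHL1 in TPM in every library and overlapped between genotypes. It had 97.9 and 134 CPM in EED-knockout cells, against 129 and 89.5 CPM in wild type cells, a log2 fold change of 0.088 ± 0.26 (95% interval -0.52 to 0.69; edgeR adjusted p = 0.984). The interval leaves room for differences of up to 0.69 on the log2 scale. STMN2, a regulator of microtubules in growing axons, had 0.263 and 1.02 CPM in EED-knockout cells, against 0.440 and 0.664 CPM in wild type cells. Its knockout libraries enclosed both wild type values.

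The neurofilament genes encode the intermediate filaments of axons. NEFL, the light chain, had 50.7 and 63.6 CPM in EED-knockout cells, against 52.2 and 64.9 CPM in wild type cells, a log2 fold change of -0.036 ± 0.22 (95% interval -0.55 to 0.48). Its pairs of values nearly coincided. NEFM, the medium chain, was low at 0.632 and 0.641 CPM in EED-knockout cells, against 0.826 and 1.11 CPM in wild type cells, and an antisense gene, GS1-72M22.1, overlaps it. NEFH, the heavy chain, had 0.843 and 0.695 CPM in EED-knockout cells, against 0.330 and 0.664 CPM in wild type cells. These came from 16 and 13 counts against 6 and 12, with knockout library 2 next to wild type library 2. NEFH was higher in both knockout libraries and NEFM lower in CPM, a direction that turned for NEFM on the TPM scales and with length-scaled counts, and edgeR's adjusted p was 0.988 for NEFL, 0.928 for NEFM and 0.937 for NEFH. INA, which encodes alpha-internexin, had 17.9 and 2.08 CPM in EED-knockout cells, against 5.17 and 5.75 CPM in wild type cells. The INA knockout libraries lay on either side of the wild type libraries, and the log2 fold change of 0.87 ± 0.82 had an interval of -1.07 to 2.82.

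The RNA-binding genes were low. RBFOX3, whose product NeuN marks mature neurons, had 2.58 and 1.02 CPM in EED-knockout cells, against 0.550 and 0.995 CPM in wild type cells. The groups were just apart, with knockout library 2 next to wild type library 2, and the log2 fold change was 1.21 ± 0.66 (95% interval -0.35 to 2.77; edgeR adjusted p = 0.878). RBFOX1, a related splicing regulator, had 0.0527 and 0.588 CPM in EED-knockout cells, against 0.055 and 0.719 CPM in wild type cells, so that library 1 of each genotype was low. ELAVL4, which encodes the neuronal RNA stabiliser HuD, had 2.05 and 2.19 CPM in EED-knockout cells, against 2.59 and 1.99 CPM in wild type cells, and overlapped.

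The adhesion genes NCAM1 and L1CAM were among the abundant ones. NCAM1, a cell surface adhesion molecule of neurons and many neuroendocrine tumours, had 93.1 and 53.3 CPM in EED-knockout cells, against 70.9 and 84.8 CPM in wild type cells. L1CAM, which guides axon growth, had 77.0 and 49.4 CPM in EED-knockout cells, against 46.1 and 91.1 CPM in wild type cells. Both overlapped, with log2 fold changes of -0.089 ± 0.29 for NCAM1, which turned positive on the TPM scales and with length-scaled counts, and -0.12 ± 0.36 for L1CAM. NLGN1, a postsynaptic adhesion molecule that binds neurexins, had 13 and 18.8 CPM in EED-knockout cells, against 15.7 and 11.3 CPM in wild type cells. RELN, the secreted matrix protein that granule neurons make in the developing cerebellum, had 17.9 and 9.24 CPM in EED-knockout cells, against 19.9 and 11.3 CPM in wild type cells. Library 1 had more RELN than library 2 in either genotype, and edgeR's adjusted p was 0.948 for NLGN1 and 0.971 for RELN.

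Of the synaptic vesicle genes 1 of 5 tested was higher, and all but SYT1 overlapped in CPM. SYT1, the calcium sensor of vesicle release, had 6.74 and 5.50 CPM in EED-knockout cells, against 6.94 and 8.35 CPM in wild type cells, a log2 fold change of -0.32 ± 0.32 (95% interval -1.08 to 0.44; edgeR adjusted p = 0.929). Its highest knockout value lay close under its lowest wild type value. RP1-78O14.1, a gene on the opposite strand that overlaps SYT1, had 2.69 and 3.74 CPM in EED-knockout cells, against 4.95 and 3.59 CPM in wild type cells. VAMP2, the vesicle SNARE protein, had 17.8 and 14.1 CPM in EED-knockout cells, against 14.4 and 15.1 CPM in wild type cells. SYP, which encodes the vesicle membrane protein synaptophysin, had 9.69 and 6.04 CPM in EED-knockout cells, against 8.70 and 7.35 CPM in wild type cells. SNAP25, the plasma membrane SNARE of neurons, had 1.79 and 0.748 CPM in EED-knockout cells, against 1.21 and 1.38 CPM in wild type cells. For SYP and SNAP25 the knockout libraries enclosed the wild type ones. SYN1, which tethers vesicles to the cytoskeleton, had 0.685 and 1.50 CPM in EED-knockout cells, against 2.15 and 0.221 CPM in wild type cells. The wild type libraries were the extremes there, and ARAF and TIMP1 lie on the strand opposite to SYN1.

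The glutamate receptor genes GRIN1 and GRIN2B encode subunits of the NMDA receptor. GRIN1 had 1.00 and 2.89 CPM in EED-knockout cells, against 1.54 and 1.82 CPM in wild type cells, and knockout values enclosed the wild type ones. LRRC26, which overlaps GRIN1 on the opposite strand, had 0.737 and 1.07 CPM in EED-knockout cells, against 0.550 and 0.166 CPM in wild type cells. GRIN2B had 41 and 4 counts in EED-knockout cells, against 0 and 14 counts in wild type cells, or 2.16 and 0.214 CPM against 0 and 0.774 CPM. Each genotype had a high and a low library, and the log2 fold change of 1.60 ± 1.41 had an interval of -1.73 to 4.93.

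The granins are acidic proteins that form dense-core secretory granules. CHGB, or chromogranin B, had 6.74 and 6.52 CPM in EED-knockout cells, against 4.51 and 3.76 CPM in wild type cells. Its replicates lay closer to each other than the genotypes did, both in CPM and in TPM (3.91 and 3.71 TPM in EED-knockout cells, against 2.37 and 2.12 TPM in wild type cells). The log2 fold change was 0.68 ± 0.34 (95% interval -0.12 to 1.48), with an unadjusted p of 0.0836 and an adjusted p of 0.865 in edgeR. SCG2, or secretogranin II, had 2.63 and 0.908 CPM in EED-knockout cells, against 0.936 and 3.93 CPM in wild type cells, and overlapped.

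UCHL1 and CALB2 were abundant and varied more between the knockout libraries than between genotype means. UCHL1, a deubiquitinating enzyme plentiful in neurons, had 635 and 303 CPM in EED-knockout cells, against 362 and 450 CPM in wild type cells, or 1128 and 518 TPM against 588 and 772 TPM. CALB2, which encodes the calcium buffer calretinin, had 26.9 and 11.5 CPM in EED-knockout cells, against 12.8 and 18.7 CPM in wild type cells. For both genes knockout library 1 was the highest and knockout library 2 the lowest of the 4. The log2 fold changes were 0.21 ± 0.35 (95% interval -0.61 to 1.03) for UCHL1 and 0.28 ± 0.42 for CALB2, with adjusted p of 0.961 and 0.955 in edgeR.

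The other 12 genes had too few counts to test. SYT4, a synaptotagmin, had no count in any library, so its level lay under a limit of 0.157 to 0.168 CPM, scaled to the library totals. DCX, the microtubule protein of migrating neuroblasts, had 1 and 3 counts in EED-knockout cells, against 2 and 6 in wild type cells. GAP43, a growth cone protein, had 10 and 5 counts in EED-knockout cells, against 2 and 5 in wild type cells. These are values near the floor, from which no direction can be read. CHGA, or chromogranin A, had 15 and 6 counts in EED-knockout cells, against 1 and 0 in wild type cells. ELAVL3, the RNA-binding protein HuC, had 20 and 2 counts in EED-knockout cells, against 5 and 5 in wild type cells. CNTN2, an axonal adhesion protein, had 17 and 3 counts in EED-knockout cells, against 4 and 4 in wild type cells. CHGA was higher in both knockout libraries, while ELAVL3 and CNTN2 were high in knockout library 1 only, all from few counts and without a test. GRIA2 and CALB1 had 7 and 1, and 11 and 0, counts in EED-knockout cells, against 0 and 7, and 3 and 3, in wild type cells. STMN4 and NRXN3 had 1 and 4, and 2 and 0, counts in EED-knockout cells, against 7 and 4, and 3 and 6, in wild type cells. STMN4 was tied at 4 counts in library 2 of each genotype, and no direction can be read from these values either. ELAVL2 and CNTN1 each had a single count, in knockout library 2.

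**Figure D3:**
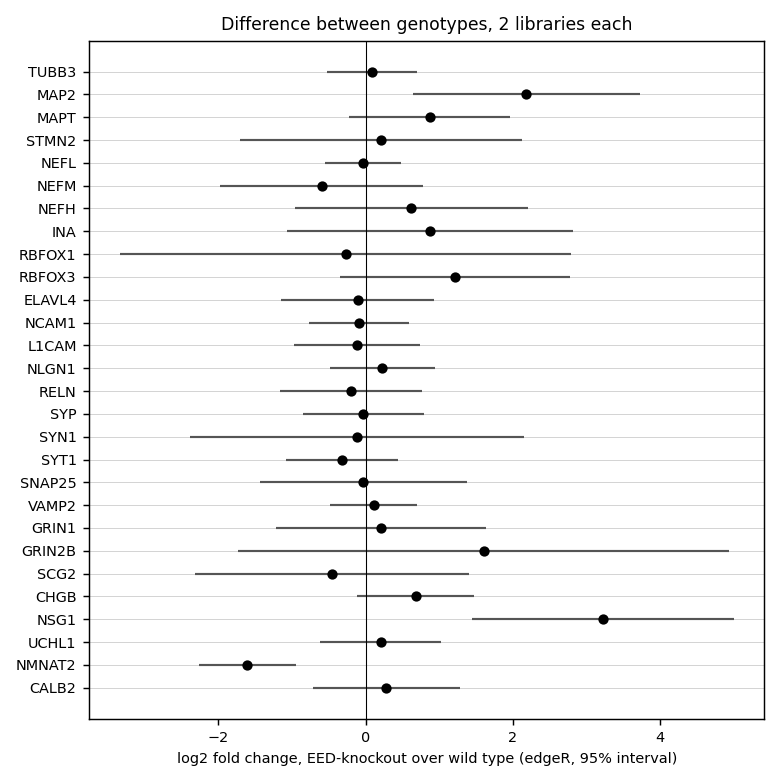
Log2 fold change, EED-knockout over wild type, of the 28 genes tested, with 95% intervals from edgeR (2 libraries in each group). The intervals of MAP2, NSG1 and NMNAT2 do not reach 0, and those of the other 25 do.

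The EED-knockout libraries were also set against each other. The median absolute log2 difference between knockout libraries 1 and 2 was 0.72 over the 28 genes, against 0.34 over all genes tested, while between the wild type libraries it was 0.31 against 0.25. Knockout library 1 was the higher of its pair in 19 of 28 genes (67.9%), against 49.8% of all genes, and wild type library 1 was the higher of its pair in 8 of 28 (28.6%), against 49.9%. The 28 genes had lower counts, with a median of 99.9 per library against 287 over all genes tested, and the part of low counts in the result was not tested. Other gene lists had such differences too: over the 159 tested genes of 8 other neuronal lists the median absolute log2 difference between the knockout libraries was 0.50, with 100 of 159 higher in library 1, and over 9 mesenchymal marker genes it was 0.93, with 8 of 9 higher in library 1. Each knockout library was then compared alone with both wild type libraries, which the comparisons share. UCHL1 was 0.65 above wild type on the log2 scale in knockout library 1 and 0.42 below it in knockout library 2, and INA was 1.71 above and 1.38 below. CHGB had nearly equal values, 0.70 and 0.66. The sign held under all 12 alternative settings for 8 of the 28: MAP2, MAPT, NEFH, RBFOX3, CHGB and NSG1 higher, and SYT1 and NMNAT2 lower, in EED-knockout cells. All 8 had groups apart in CPM, so leaving out a library could hardly turn their sign, and the settings reuse the same libraries. Of all genes tested, 17.8% had both knockout values above both wild type values in CPM and 18% had both below. The share of all genes whose sign held was not counted.

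**Figure D4:**
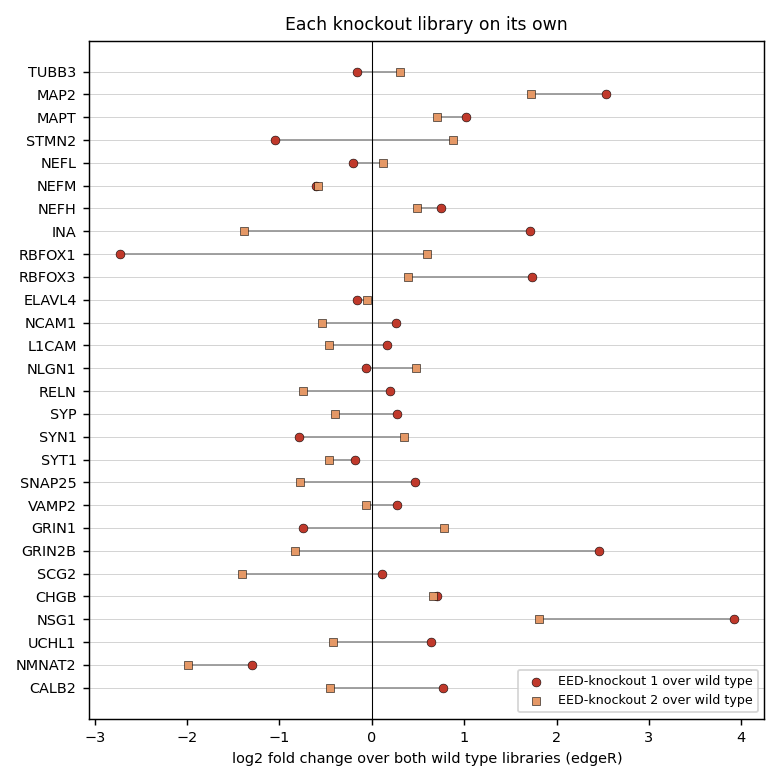
Log2 fold change of each EED-knockout library over both wild type libraries (edgeR) for the 28 genes tested, with 2 points for each gene. Both comparisons use the same wild type libraries. The points of INA lie far apart at 1.71 and -1.38, and those of CHGB nearly coincide at 0.70 and 0.66.

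A further 8 lists of neuronal genes, none of which holds any of the 40, were read in the same fit. Of their 222 genes 159 were tested, and 103 were higher and 56 lower in EED-knockout cells. Their median log2 fold change was 0.14, against 0.0074 over all genes. edgeR called 0 of them after adjustment, against 0% of all genes. In CPM both knockout values were higher for 42 of the 159 and both lower for 17, against 17.8% and 18% of all genes tested. At an unadjusted p under 0.05, 16 were higher (10.1%, against 2.85% of all genes) and 5 lower (3.14%, against 3.05%). DESeq2 called KIF1A and LINGO1 higher, where it called 0.142% of all genes.

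The cytoskeleton and growth list had 19 of 26 tested genes higher and a median of 0.37. KIF1A, the kinesin that carries synaptic vesicle precursors along axons, had 385 and 288 CPM in EED-knockout cells, against 75.1 and 151 CPM in wild type cells, a log2 fold change of 1.57 ± 0.35 (SE, n = 2 each; adjusted p = 0.719 in edgeR and 0.00362 in DESeq2). MAP6, which makes microtubules resistant to cold, had 3.58 and 3.21 CPM in EED-knockout cells, against 0.991 and 0.940 CPM in wild type cells (1.81 ± 0.45; adjusted p = 0.799 in edgeR and 0.368 in DESeq2). Both genes had knockout libraries well above the wild type ones. Over the alternatives run the log2 fold change ranged from 1.16 to 2.16 for KIF1A and from 1.10 to 1.95 for MAP6. Both knockout values were higher in CPM for 42.3% of this list and both lower for 7.69%, against 17.8% and 18% of all genes tested.

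Of the adhesion list, 12 of 20 tested genes were higher, with a median of 0.17. LINGO1, a Nogo receptor partner that limits axon growth, had 6.06 and 5.24 CPM in EED-knockout cells, against 1.21 and 0.995 CPM in wild type cells, a log2 fold change of 2.35 ± 0.41 (adjusted p = 0.491 in edgeR and 0.0103 in DESeq2). LSAMP, an adhesion protein of limbic neurons, had 11.6 and 11.7 CPM in EED-knockout cells, against 24.3 and 23.2 CPM in wild type cells (-1.03 ± 0.23; adjusted p = 0.719 in edgeR and 0.0699 in DESeq2). These genes went in opposite directions with replicates close together. Over the alternatives run the log2 fold change ranged from 1.79 to 2.79 for LINGO1 and from -1.34 to -0.99 for LSAMP. Both knockout values were higher in CPM for 15% of this list and both lower for 10%, against 17.8% and 18% of all genes tested.

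The splicing and RNA-binding list had 9 of 11 tested genes higher and a median of 0.39. MSI1, which binds RNA in neural progenitors, had 15 and 11.1 CPM in EED-knockout cells, against 6.11 and 6.58 CPM in wild type cells (1.04 ± 0.30). NOVA1, a neuronal splicing regulator, had 11.1 and 10.7 CPM in EED-knockout cells, against 5.72 and 6.41 CPM in wild type cells (0.85 ± 0.29). Neither overlapped, and edgeR's adjusted p was 0.799 for MSI1 and 0.808 for NOVA1. Both knockout values were higher in CPM for 54.5% of the 11 and both lower for 0%, against 17.8% and 18% of all genes tested. In TPM these shares were 81.8% and 0%, against 23.4% and 12.9%.

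The vesicle and exocytosis list had 25 of 34 tested genes higher (median 0.16), the postsynaptic list 18 of 30 (0.18) and the dense-core granule and neuropeptide list 7 of 13 (0.046). SYT2, a fast calcium sensor of release, had 1.84 and 1.60 CPM in EED-knockout cells, against 0.605 and 0.553 CPM in wild type cells, and SYNGR1, a vesicle membrane protein, had 16.5 and 13.6 CPM against 5.83 and 9.90 CPM. CHRNB2, a nicotinic receptor subunit, had 2.95 and 2.78 CPM in EED-knockout cells, against 6.38 and 5.09 CPM in wild type cells. SHANK3, a postsynaptic scaffold, had 17 and 10.7 CPM in EED-knockout cells, against 6.22 and 9.18 CPM in wild type cells. In all of these, picked by their p, the groups were apart, CHRNB2 lower and the others higher in knockout cells. The edgeR adjusted p was 0.808 for SYT2, SYNGR1 and CHRNB2 and 0.834 for SHANK3. Both knockout values were higher in CPM for 20.6% of the vesicle, 26.7% of the postsynaptic and 30.8% of the dense-core list. Both were lower for 14.7%, 13.3% and 15.4%. Over all genes tested these shares were 17.8% and 18%. CPE, which trims neuropeptide precursors, had 20.0 and 13.3 CPM in EED-knockout cells, against 6.05 and 9.62 CPM in wild type cells. ADCYAP1, which encodes the neuropeptide PACAP, had 3.58 and 3.47 CPM in EED-knockout cells, against 0.330 and 1.44 CPM in wild type cells. Their log2 fold changes were 1.08 ± 0.35 and 1.99 ± 0.68, with edgeR adjusted p of 0.799 for CPE and 0.808 for ADCYAP1.

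In the REST complex list all 18 genes were tested, 10 higher and 8 lower, with a median log2 fold change of 0.017 against 0.0074 over all genes. At an unadjusted p under 0.05 in edgeR, 0 of the 18 were higher, against 2.85% of all genes, and 0 lower, against 3.05%, and with 18 genes these counts are near the background. PHF21A, a REST cofactor that reads unmethylated histone H3 lysine 4, had 37.9 and 24.5 CPM in EED-knockout cells, against 18.7 and 26.4 CPM in wild type cells. HDAC2, a histone deacetylase, had 136 and 179 CPM in EED-knockout cells, against 245 and 163 CPM in wild type cells. Both overlapped in CPM, with edgeR adjusted p of 0.881 for PHF21A and 0.893 for HDAC2. In TPM HDAC2 overlapped and PHF21A did not, with 18.8 and 20.7 TPM in EED-knockout cells against 11 and 13.4 TPM in wild type cells. Of the 24 proneural and neuronal transcription factors, 7 had enough counts to test, 3 of them higher and 4 lower (median -0.12, against 0.0074 over all genes). POU4F1 had 17.8 and 17.3 CPM in EED-knockout cells, against 23.1 and 20.0 CPM in wild type cells (-0.30 ± 0.23; edgeR adjusted p = 0.899), and its groups did not overlap. HAND2 had 4.53 and 1.71 CPM in EED-knockout cells, against 3.19 and 0.885 CPM in wild type cells (adjusted p = 0.942).

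**Figure D5:**
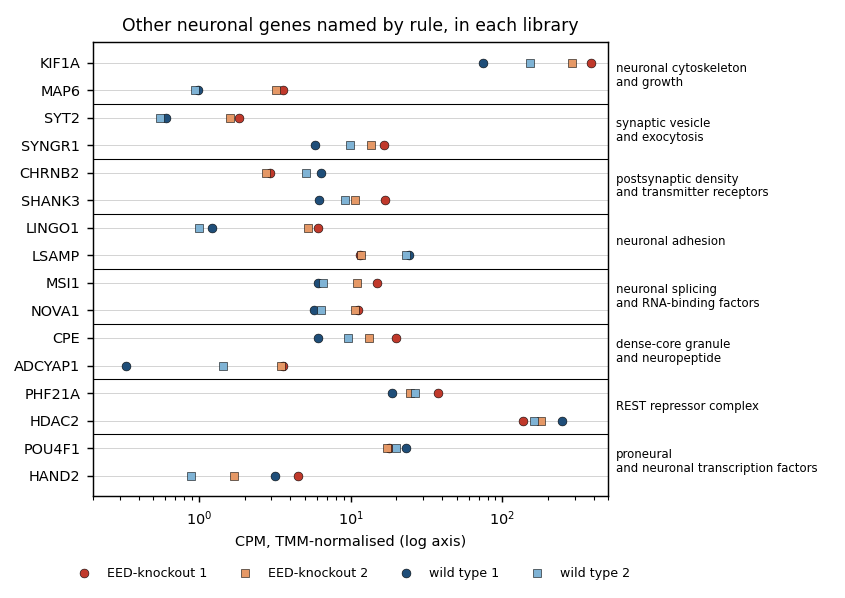
CPM on a log axis of the genes named from the other neuronal lists, with 1 point for each library (2 EED-knockout, 2 wild type). The genes were picked by the smallest unadjusted p of edgeR in the same libraries. The points of KIF1A, at 288 and 385 CPM in EED-knockout cells, and the points of LINGO1 and MAP6 in the same cells lie to the right of those in wild type cells.

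Markers of cell types were read beside these results as summed TPM, and their part in the results was not tested. The list for granule progenitors and hedgehog medulloblastoma had 9 of 12 genes above 1 TPM in every library, but ATOH1, the defining factor of granule progenitors, was at 0 in all 4. Its sum was 218 and 148 TPM in EED-knockout cells, against 116 and 145 TPM in wild type cells, highest in the library with the highest UCHL1 and NSG1. Neural stem and progenitor markers (5 of 9 above 1 TPM) summed to 3491 and 3421 TPM in EED-knockout cells, against 3359 and 3139 TPM in wild type cells, and VIM alone gave 3432 and 3371 TPM of it in EED-knockout cells, against 3315 and 3091 TPM in wild type cells. Mesenchymal markers (8 of 9) summed to 4162 and 2646 TPM in EED-knockout cells, against 3682 and 3920 TPM in wild type cells, of which FN1 gave 2853 and 1698 TPM in EED-knockout cells, against 3052 and 2783 TPM in wild type cells. Epithelial markers (3 of 6) summed to 650 and 627 TPM in EED-knockout cells, against 507 and 745 TPM in wild type cells, of which KRT18 gave 597 and 495 TPM, against 446 and 602 TPM. The mesenchymal sum, like UCHL1, was highest in knockout library 1 and lowest in knockout library 2. Astroglial markers (3 of 7) summed to 131 and 111 TPM in EED-knockout cells, against 132 and 121 TPM in wild type cells, of which GJA1 gave 117 and 95.8 TPM, against 121 and 108 TPM. Oligodendrocyte markers (1 of 8, with SOX10 and MOG at 0 in all libraries) summed to 19.5 and 20.7 TPM in EED-knockout cells, against 17.7 and 20.1 TPM in wild type cells. Muscle markers (3 of 8) summed to 30.8 and 23.0 TPM in EED-knockout cells, against 86.5 and 65.9 TPM in wild type cells. Blood markers (0 of 6, with CD3E at 0 in all libraries) stayed between 1.37 and 3.94 TPM in every library.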

How the data were processed

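RNA-seq libraries of total RNA from EED-knockout and wild type Daoy cells, 2 each, were grouped by the labels' genotype. RNA was extracted with TRIZOL and cleaned on RNeasy columns, per the labels' protocols. The deposited estimated counts and TPM are kallisto 0.43.1 output per transcript with the build hg38, per the submitters' processing notes. GENCODE 29 (GRCh38) gave positions for 57836 of the 58174 genes. Estimated counts and TPM were summed per gene, and counts were rounded to whole numbers. Genotypes were compared with edgeR 4.0.16 in R 4.3.3: quasi-likelihood F test, TMM factors, filterByExpr (minimum count 10, minimum total 15), no covariate, two-sided, Benjamini-Hochberg threshold 0.05 over 18349 genes. DESeq2 1.42.0 and limma-trend 3.58.1 on log2(TPM + 1) and log2(TPM + 0.1) were alternatives, with RLE factors, no filter, length-scaled TPM counts, a replicate block and each library left out.

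The members, lists and alternatives were chosen with earlier results of these data known. Every tested member is named, and up to 3 genes from each other list: those past the threshold, or otherwise the 2 with the smallest p. Intervals are 95% intervals of the fit, and floors cover counting error only.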

Additional observations from a re-analysis of the deposited data

How the results depend on the processing

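edgeR called 0 of 18349 genes (523 higher and 559 lower at an unadjusted p under 0.05), while DESeq2 called 68 genes (26 higher, 42 lower), among them 2 of the 28 neuronal genes. Leaving out 1 library gave 0 to 95 genes: 92 without EED-knockout 1, 95 without EED-knockout 2, 0 without wild type 1 and 4 without wild type 2. The neuronal genes called were then 0 to 1. Their median was -0.060 to 0.35 with 1 library left out (0.35 without wild type 2, -0.060 without EED-knockout 1 and 0.23 without EED-knockout 2). EED stayed lower throughout, at -0.79 to -0.24. With a replicate block, edgeR called 0 genes and 0 neuronal genes, with a median of 0.07. The labels do not pair the libraries, and deviations of same-numbered libraries correlated at -0.14 over 18349 genes.

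With all 4 libraries there were 359 values for 45 named genes, of which 330 kept their sign and side of the threshold. The threshold was passed by 4 (NSG1, NMNAT2, KIF1A and LINGO1 in DESeq2), and 25 reversed. With 1 library left out, 32 of 180 values reversed. With length-scaled counts the reversed values were -1.04 for STMN2, 0.014 for NEFM, 0.11 for NCAM1, 1.04 for SNAP25 and -0.11 for HAND2. With log2(TPM + 1), with and without the filter, they were -0.42 for STMN2, 0.022 for NEFL, 0.12 for NEFM, 0.15 for NCAM1, 0.028 for SYN1 and 0.47 for SNAP25. With log2(TPM + 0.1) they were -0.84 for STMN2, 0.023 for NEFL, 0.36 for NEFM, 0.15 for NCAM1, 0.32 for SYN1, 0.61 for SNAP25 and -0.12 for GRIN1. SYN1 was 0.32 with the replicate block. With 1 library left out, TUBB3 was -0.16 to 0.38, STMN2 -1.05 to 0.88, NEFL -0.21 to 0.13, INA -1.38 to 1.71, RBFOX1 -2.73 to 2.40, ELAVL4 -0.28 to 0.094, NCAM1 -0.54 to 0.26, L1CAM -0.53 to 0.46, NLGN1 -0.064 to 0.49 and RELN -0.75 to 0.26. SYP was -0.40 to 0.27, SYN1 -0.97 to 2.27, SNAP25 -0.78 to 0.46, VAMP2 -0.064 to 0.27, GRIN1 -0.75 to 0.78, GRIN2B -0.83 to 7.48, SCG2 -1.41 to 0.92, UCHL1 -0.42 to 0.65, CALB2 -0.45 to 0.77 and HAND2 -0.25 to 1.81. The upper GRIN2B value is against a single wild type library at 0 and is no bound. GRIN2B had no value with length-scaled counts. The cause was not tested.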
